A study of Mus musculus with 6 samples.

Results

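The C/EBP factors are a family of transcription factors, and 8 probe sets for 4 of the 5 genes named here (Cebpa, Cebpb, Cebpd and Cebpg) were measured, of 45101 probe sets in all and 18193 genes with a probe set of their own. Members were selected on gene name, with the earlier result for Cebpb in these same comparisons known, and every probe set that the platform annotation lists under one of the names was taken. No probe set was listed under Cebpz, which is not analysed here. Because the differences of Cebpb between the groups brought the family into view, all values of the members are given as a description; their calls in the fit across all genes are counted beside those of all genes and support nothing.

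Expression was measured on 6 arrays of mouse regulatory T cells (Tregs), 2 per group. The C57Bl/6 mice were 8 to 11 weeks old and all carried the FoxP3GFP reporter, by which CD4+CD25+FoxP3+ cells of their lymph nodes and spleen were sorted. The groups were A2AR+/+ cells with the DMSO vehicle (WT vehicle), A2AR-/- cells with vehicle (KO vehicle) and A2AR+/+ cells with 10 nM ATL1222, an agonist selective for the adenosine receptor A2AR (WT ATL1222). Every culture lasted 18 h, so no group shows freshly isolated cells, and the receptor was absent from the germline genotype, not deleted in Tregs alone. The agonist was not given to A2AR-/- cells. WT ATL1222 against KO vehicle therefore differs in both genotype and agonist, and does not show the agonist alone. The labels call the replicates biological without saying whether they came from separate mice. The p-values therefore set a difference only against the spread between these arrays, estimated in part from the other genes tested.

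C/EBP proteins bind DNA as dimers through a basic leucine zipper, and different members can pair with each other. They are best known from myeloid, liver and fat cells. Cebpa encodes C/EBP alpha, which drives the differentiation of those cells. Cebpb encodes C/EBP beta, also called NF-IL6, which cytokines and cAMP induce, and whose promoter is a textbook target of the cAMP-responsive factor CREB. Cebpd encodes C/EBP delta, an acute-phase factor, and Cebpg encodes C/EBP gamma, which lacks a strong activation domain and acts mainly as a partner. Cebpz shares the name but encodes a CCAAT-binding protein without the leucine zipper. A2AR signalling raises intracellular cAMP, so the comparisons ask how the loss and the activation of that receptor go with the levels of these factors.

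The bases before the start site are shown, as RefSeq lists them in GRCm38.p6, for Cebpb and Cebpg, the members bright enough to be tested. Of these, Cebpb differed more between the groups, and both were picked with their values known. The Cebpb stretch is chr2:167688665-167688914 on the plus strand and the Cebpg stretch chr7:35056567-35056816 on the minus strand, each 250 bases long and ending at the base before the listed start. Capitals mark TGACG, the short site bound by CREB and its relatives, in Cebpb, and CCAAT, the box that gave the family its name, in Cebpg, both on either strand.
Cebpb: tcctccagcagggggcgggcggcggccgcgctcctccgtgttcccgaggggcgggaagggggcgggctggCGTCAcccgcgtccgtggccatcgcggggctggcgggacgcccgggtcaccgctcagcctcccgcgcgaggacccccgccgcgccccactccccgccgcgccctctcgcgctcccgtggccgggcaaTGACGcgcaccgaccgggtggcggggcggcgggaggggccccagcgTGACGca
Cebpg: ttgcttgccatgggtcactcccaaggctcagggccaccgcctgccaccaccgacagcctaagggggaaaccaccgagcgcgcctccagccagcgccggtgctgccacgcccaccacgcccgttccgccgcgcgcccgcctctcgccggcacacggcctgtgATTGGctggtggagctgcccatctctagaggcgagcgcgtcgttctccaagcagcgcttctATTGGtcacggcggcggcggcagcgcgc

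The Cebpb stretch held 3 copies of TGACG, which begin 180, 53 and 7 bases before the listed start, and the Cebpg and Cebpa stretches held 0. Of 32851 promoter stretches of this length, 17.8% held at least 1 copy and 0.688% at least 3. The full palindrome TGACGTCA, which contains the short site on both strands, was in none of the 3 members' stretches and in 1.55% of all. The Cebpg stretch held 2 copies of CCAAT, a number that 10.1% of all stretches reached, and the Cebpb and Cebpa stretches held 0. The letters TTGCNNAA, a C/EBP core, were found in none of the 3 members' stretches and in 9.56% of all. These matches describe letters in a window whose base composition was rich in G and C, at 81.6% for Cebpb and 70.8% for Cebpg. The shares over all stretches were not matched to that composition. Cebpd has no entry in that table.

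Both probe sets of Cebpb were ordered across all 3 groups without overlap, as was probe set 1451639_at of Cebpg, in smaller steps. How many of all genes have such an order was not counted, so nothing is read from it, here or for genes named below. The signal of the brighter Cebpb probe set (1418901_at) was 705.5 and 558.0 on the KO vehicle arrays, 1448 and 962.6 on the WT vehicle arrays, and 2794 and 2285 on the WT ATL1222 arrays. The 3 groups did not overlap: the highest KO array lay below the lowest WT vehicle array, and the highest WT vehicle array below the lowest ATL1222 array. Group means were 631.7 ± 104 (SD, n = 2), 1205 ± 343 and 2539 ± 360 in that order.

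**Figure D1:**
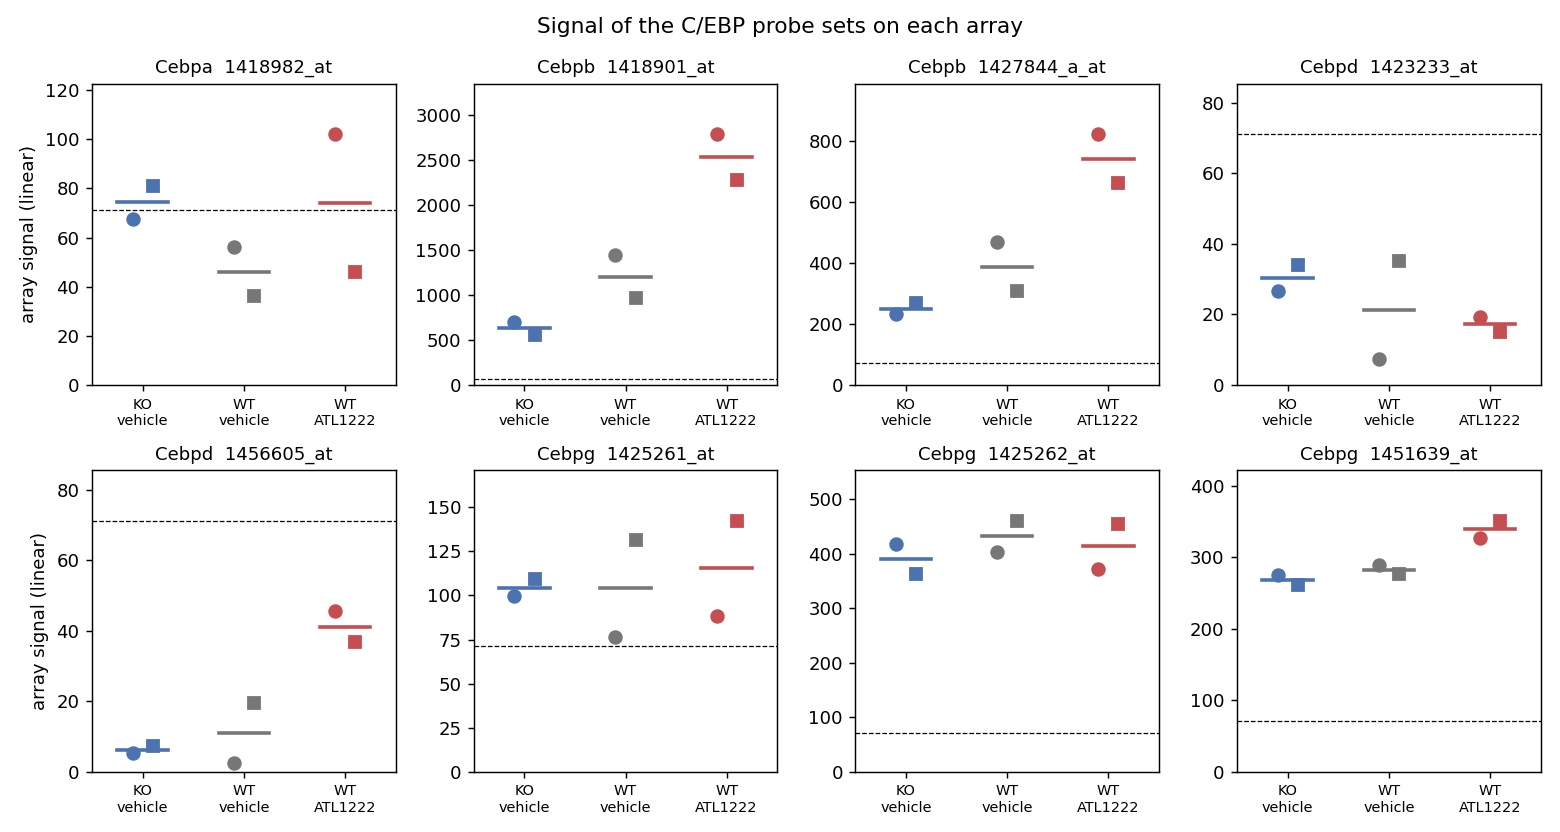
Array signal on a linear scale for each C/EBP probe set, with a panel per probe set and its own axis from 0. Circles are replicate 1, squares replicate 2, bars the group mean of 2 arrays, and the dashed line the limit of 71.2 below which genes were left out of the tests; the groups separate in the order KO vehicle, WT vehicle, WT ATL1222 in both Cebpb panels, whereas both Cebpd panels lie under the line.

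On the log2(signal + 16) scale, on which all differences are given, Cebpb lay -0.90 ± 0.20 (SE) below WT vehicle in the knockout, 1.09 ± 0.20 above it with ATL1222, and 1.98 ± 0.20 above the knockout with ATL1222. These correspond to folds of 1.86, 2.12 and 3.95. Both comparisons against WT vehicle share the same 2 control arrays. Among the 10916 genes that passed the filter on dim genes, Cebpb ranked 76 from the most negative difference in the knockout and 47 from the most positive with ATL1222. With ATL1222 against the knockout it ranked 15 from the most positive.

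Between arrays of the same replicate number the Cebpb difference kept its direction. It was -1.02 for number 1 and -0.77 for number 2 in the knockout, 0.94 and 1.23 with ATL1222 against WT vehicle, and 1.96 and 2.00 with ATL1222 against the knockout. In every group this probe set was brighter on the array numbered 1, which held for the second Cebpb probe set in the wild-type groups but not in the knockout. The spiked-in poly-A control RNAs Lys, Phe and Thr were also brighter on the array numbered 1 in every group, by 1.48 to 1.98 times, and the fourth such control, Dap, by 1.10 to 1.27 times. Their part in the Cebpb values was not tested.

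The second Cebpb probe set (1427844_a_at) gave signals of 232.5 and 267.7 in KO vehicle, 468.8 and 307.1 in WT vehicle, and 822.2 and 660.8 in WT ATL1222. Its groups did not overlap either and stood in the same order. Its differences were -0.58 ± 0.23 in the knockout, 0.93 ± 0.23 with ATL1222, and 1.50 ± 0.23 with ATL1222 against the knockout. Within numbers 1 and 2 the knockout difference was -0.96 and -0.19, so the arrays numbered 2 differed little on this probe set. Over the 6 arrays both probe sets correlated with Pearson r = 0.975, a description of probes that read the same RNA on the same arrays.

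In limma's fit across all genes, with Benjamini-Hochberg adjustment at 0.05, 0 of the 2 members tested were called in the knockout comparison. Over all genes 0% were called higher and 0.0275% lower there. With ATL1222 against WT vehicle 1 of 2 was called, Cebpb, which was higher, beside 0.202% of all genes called higher and 0.00916% lower. Against the knockout 1 of 2 was called, again Cebpb, beside 0.879% called higher and 0.119% lower. With the replicate number as a block Cebpb was called lower in the knockout too, beside 0.0824% of all genes, and higher with ATL1222 beside 0.678% against WT vehicle and 1.88% against the knockout. Nothing is read from these shares, since the family was chosen with these contrasts known. The knockout call was made with the block alone. The call against WT vehicle held under 9 of 17 alternatives. It was lost with no filter on dim genes, no variance trend, each probe set tested separately, probe sets averaged or a pseudocount of 1, and without some single arrays.

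**Figure D2:**
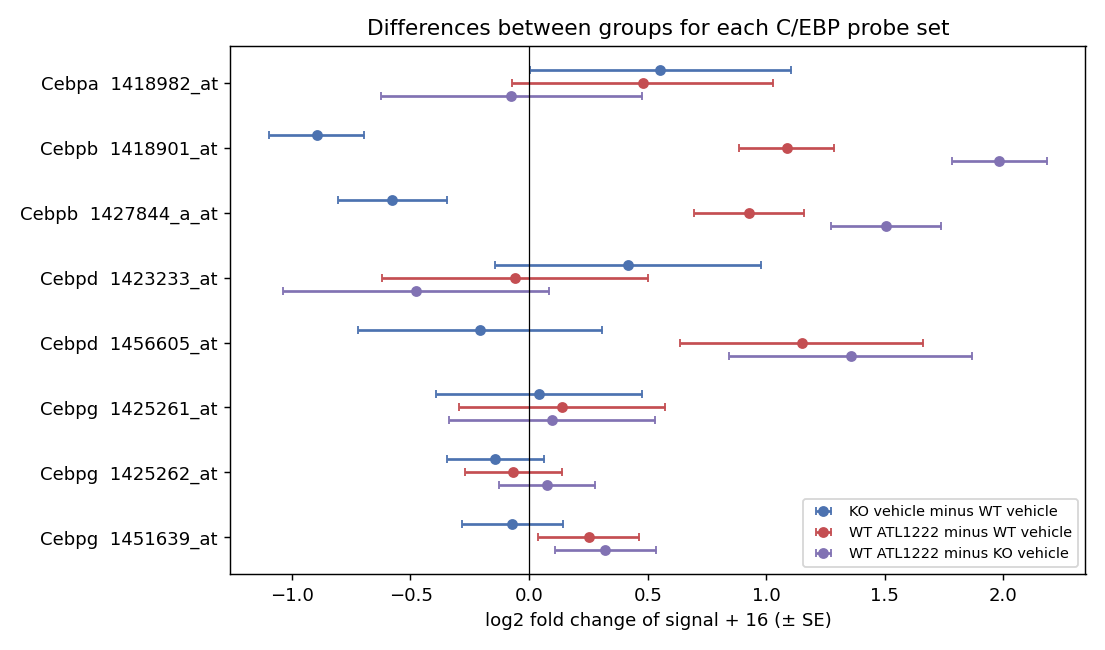
Differences between groups for each C/EBP probe set, in log2 of signal + 16, with points for the estimate, bars for ± 1 SE and a colour for each of the 3 comparisons. Both Cebpb probe sets lie left of 0 in the knockout and right of 0 with ATL1222, from -0.90 to 1.98, and all points of Cebpg lie between -0.14 and 0.32.

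Cebpg, the partner subunit, was the other member that passed the filter on dim genes. Its brightest probe set (1425262_at) gave 418.9 and 363.0 in KO vehicle, 404.4 and 461.2 in WT vehicle, and 371.9 and 455.5 in WT ATL1222. All 3 groups overlapped. The differences were -0.14 ± 0.20 in the knockout, -0.07 ± 0.20 with ATL1222 and 0.08 ± 0.20 with ATL1222 against the knockout, each smaller than its SE.

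The other Cebpg probe sets did not repeat each other. Probe set 1451639_at gave 275.1 and 261.5 in KO vehicle, 288.6 and 276.2 in WT vehicle, and 327.1 and 351.4 in WT ATL1222. Its groups did not overlap and had the same order as those of Cebpb, but the steps were small, at -0.07 ± 0.21 in the knockout, 0.25 ± 0.21 with ATL1222 and 0.32 ± 0.21 between ATL1222 and the knockout. Probe set 1425261_at ranged from 76.6 to 142.5 with all groups overlapping, and its differences lay between 0.04 and 0.14 with an SE of 0.44. Across the 6 arrays Cebpb correlated with r = 0.921 with 1451639_at, and with 0.117 and -0.07 with the other 2 probe sets of Cebpg, so the probe sets of Cebpg differed from each other in how they followed Cebpb.

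Cebpa and Cebpd were dim. Genes were left out when their mean lay in the lowest 40%, a signal of about 71.2, and Cebpa stood at the 36.8th percentile and Cebpd, by its brighter probe set, at the 13.1th. Whether their transcripts were present at such levels was not tested, since no detection calls were used here.

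The 1 Cebpa probe set (1418982_at) gave 67.7 and 81.0 in KO vehicle, 56.0 and 36.3 in WT vehicle, and 102.2 and 45.9 in WT ATL1222. The knockout arrays lay above both WT vehicle arrays, and the ATL1222 arrays, which lay on either side of the knockout arrays, overlapped both other groups. The differences were 0.55 ± 0.55 in the knockout and 0.48 ± 0.55 with ATL1222, each about the size of its SE, and -0.07 ± 0.55 with ATL1222 against the knockout.

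The Cebpd probe sets disagreed. Probe set 1423233_at gave 26.6 and 34.0 in KO vehicle, 7.34 and 35.1 in WT vehicle, and 19.3 and 15.1 in WT ATL1222, with WT vehicle spanning both other groups. Probe set 1456605_at gave 5.28 and 7.27 in KO vehicle, 2.54 and 19.5 in WT vehicle, and 45.5 and 36.8 in WT ATL1222. On the latter both ATL1222 arrays lay above all other arrays, with differences of 1.15 ± 0.51 against WT vehicle and 1.36 ± 0.51 against the knockout. On the former the same differences were -0.06 ± 0.56 and -0.48 ± 0.56. Both lay below the limit for dim genes on every array, and over the 6 arrays they correlated with r = 0.02.

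The labelled cell type was checked because myeloid cells use C/EBP factors for their own identity. Of 10 Treg and T cell markers, Ikzf2, Nrp1, Ctla4, Tnfrsf18, Ikzf4, Cd3e and Cd3g had signals of at least 1565 on every array, Il2ra and Cd4 read 416.0 to 613.1 and 135.6 to 487.8, and the probe set taken for Foxp3 read 7.18 to 53.5, below the limit for dim genes. Of the 9 that were tested, Tnfrsf18 (1.11 ± 0.17, limma adjusted p = 0.00326) and Ctla4 (0.75 ± 0.16, limma adjusted p = 0.0370) were called higher with ATL1222 against the knockout. Cebpb was higher there too, and 0.879% of all genes were called higher. Of the 9 differences 6 were positive and 3 negative, the lowest being Nrp1 at -0.40 ± 0.14 (limma adjusted p = 0.369). With ATL1222 against WT vehicle 0 were called, 5 were positive and 4 negative. An unadjusted p under 0.05 was reached by 3 higher and 1 lower, beside 314 and 235 of 10916 over all genes. In the knockout 0 were called, and 0 higher and 1 lower reached it, beside 202 and 223. Tnfrsf18 differed by 0.65 ± 0.17 against WT vehicle (limma adjusted p = 0.249) and by -0.46 ± 0.17 in the knockout. The part of these markers in the Cebpb values was not tested. Of 15 myeloid markers measured, Csf1r passed the filter on dim genes, with signals from 63.3 to 121.9, and the other 14 did not. The summed signal of the 15 was 620.9 and 974.4 in KO vehicle, 539.9 and 762.8 in WT vehicle, and 706.2 and 722.0 in WT ATL1222, with all groups overlapping. Over the arrays S100a9 ran from 1.35 to 51.0, Fcer1g from 3.03 to 73.5, Mpo from 8.85 to 101.0, Tyrobp from 11.7 to 85.6 and Lyz2, which reached the highest signal of the 15 on any array, from 42.1 to 123.3. The summed B cell markers ran from 465.8 to 584.9 with all groups overlapping. The summed dendritic cell markers were 208.6 and 267.2 in KO vehicle, 255.2 and 306.9 in WT vehicle, and 363.6 and 275.7 in WT ATL1222, so both ATL1222 arrays lay above both knockout arrays, as for Cebpb, and the part of such cells in the Cebpb values was not tested. In bulk cells, fewer cells that express a gene and less RNA of it per cell cannot be told apart.

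The genes whose values over the 6 arrays were most like those of Cebpb were named by Pearson r on the log2(signal + 16) scale, among 10915 other genes. They were Tnfaip3, an inhibitor of NF-kB signalling (r = 1.00 after rounding), Hif1a, the oxygen-regulated factor HIF-1 alpha (0.996), Bhlhe40, a basic helix-loop-helix repressor (0.996), Crem, a cAMP-responsive factor (0.994), C730049O14Rik (0.994) and the AP-1 factor Fos (0.993). In all, 269 genes had an r over 0.9. These arrays share group, replicate number and scaling, and 6 points are few. The sizes differed: with ATL1222 against WT vehicle the difference was 1.95 for Crem, 1.30 for Tnfaip3, 0.84 for Fos, 0.73 for Bhlhe40, 0.69 for C730049O14Rik and 0.40 for Hif1a. For Cebpg, 63 genes had an r over 0.9, and the most alike were Spin2c (0.986) and A830029E22Rik (0.983), with signals no higher than 209.3 on any array.

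**Figure D3:**
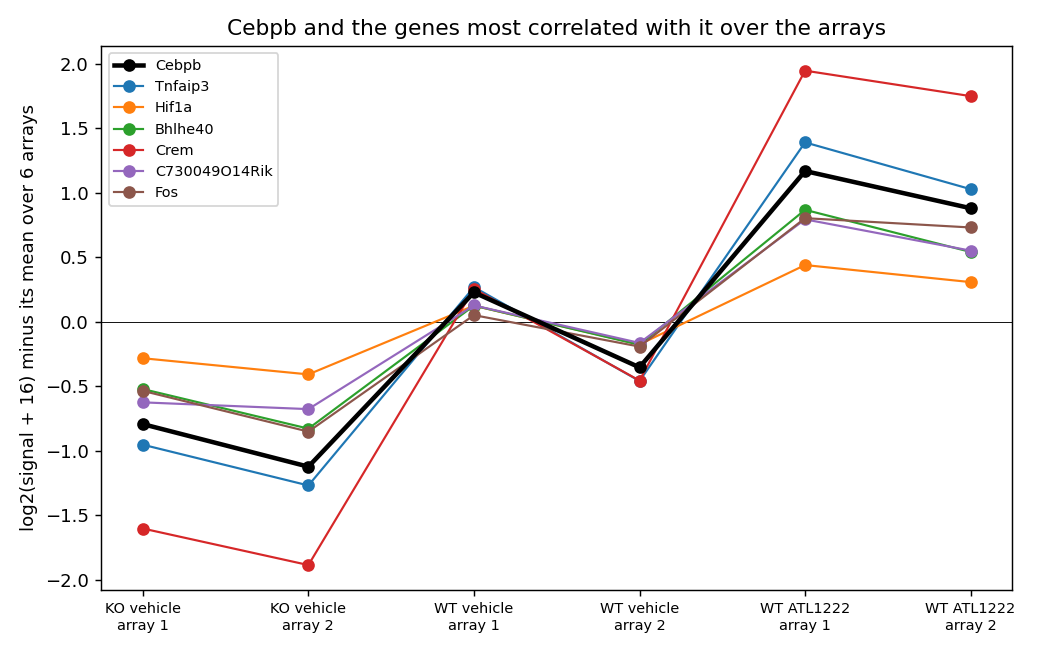
Log2(signal + 16) of Cebpb (black) and of the 6 genes most correlated with it, each minus its own mean over the 6 arrays, with the arrays in the order KO vehicle, WT vehicle and WT ATL1222 and lines joining the arrays of a gene. Every line lies lowest on the KO vehicle arrays and highest on the WT ATL1222 arrays, with the widest span for Crem and the narrowest for Hif1a.

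Other genes of the C/EBP network were counted from 3 lists, with the calls of the same limma fit over all genes. The lists were chosen with earlier results of these data known, so their counts are a description. How many of all genes separate groups without overlap was not counted, so nothing is read where a listed gene does. Over all 10916 genes, an unadjusted p under 0.05 was reached by 202 higher and 223 lower in the knockout, by 314 higher and 235 lower with ATL1222 against WT vehicle, and by 520 higher and 406 lower with ATL1222 against the knockout. The first list held 12 basic leucine zipper proteins that pair with C/EBP factors or bind related sites, of which 9 were tested. In the knockout comparison 0 were called and 0 had an unadjusted p under 0.05 in either direction; 6 of 9 differences were negative, with a median of -0.10 against 0.00 over all genes. The 2 with the smallest p were Atf4, the integrated stress response factor (-0.20 ± 0.18, adjusted p = 1.00), and Hlf (-0.38 ± 0.54, adjusted p = 1.00). With ATL1222 against WT vehicle 0 were called and 1 had an unadjusted p under 0.05; 7 of 9 were negative, with a median of -0.21 against -0.01 over all genes.

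Of these partners, the clock-controlled factor Tef gave 501.2 and 504.9 in WT vehicle, 523.3 and 547.8 in KO vehicle, and 334.6 and 399.0 in WT ATL1222. Both ATL1222 arrays lay below the other 4, with a difference of -0.44 ± 0.19 against WT vehicle (limma adjusted p = 0.901) and -0.53 ± 0.19 against the knockout (limma adjusted p = 0.347). Its relative Dbp differed by -0.45 ± 0.24 (limma adjusted p = 0.998) and -0.57 ± 0.24 (limma adjusted p = 0.520). Against the knockout 0 of the 9 were called, 1 higher and 2 lower at an unadjusted p under 0.05, beside the 520 and 406 of 10916 over all genes, with a median of -0.02, as over all genes. Ddit3 (CHOP), which pairs with C/EBP beta under stress, was among the 9 and lay at -0.10 ± 0.19 in the knockout and -0.12 ± 0.19 with ATL1222, named here after its values were seen. Cebpe, on the list, had no probe set listed under it alone.

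The second list held 22 genes that act on C/EBP genes or proteins, such as kinases, cofactors and the Tribbles proteins that direct C/EBP alpha to degradation, of which 18 were tested. In the knockout comparison 0 were called, with 1 higher and 1 lower at an unadjusted p under 0.05, and the median was 0.01 against 0.00 over all genes. Trib2 gave 2177 and 2017 in KO vehicle, 1336 and 1640 in WT vehicle, and 1383 and 1643 in WT ATL1222. Both knockout arrays lay above the 4 wild-type arrays, with a difference of 0.50 ± 0.16 (limma adjusted p = 1.00). With ATL1222 against WT vehicle 0 were called, with 1 at an unadjusted p under 0.05, and the median was 0.04 against -0.01.

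Stat3, which encodes a cytokine-activated factor upstream of Cebpd and Cebpb, gave 1732 and 1565 in KO vehicle, 2240 and 1942 in WT vehicle, and 3804 and 3136 in WT ATL1222. Its groups did not overlap and stood in the order of Cebpb, an order whose share over all genes was not counted. It rose against the knockout (1.06 ± 0.15, limma adjusted p = 0.00191) as the 1 of 18 called there, beside 0.879% of all genes called higher, with a list median of 0.01 against -0.02, and did not pass against WT vehicle (0.72 ± 0.15, limma adjusted p = 0.0809) or in the knockout (-0.34 ± 0.15, limma adjusted p = 1.00). With the replicate block the ATL1222 difference from WT vehicle passed as well (limma adjusted p = 0.00333). Without WT ATL1222 replicate 1 it was not called against the knockout. Il6ra, the receptor of the cytokine after which NF-IL6 is named, differed by -0.29 ± 0.14 with ATL1222 (limma adjusted p = 0.998), and Trib2 by -0.47 ± 0.16 against the knockout (limma adjusted p = 0.290).

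The third list held 32 genes known as C/EBP targets in liver, fat and myeloid cells. Of these 10 passed the filter on dim genes, so most targets from those cells were dim in these Tregs, among them S100a8 and Elane, which are also on the myeloid list. In the knockout comparison 0 of 10 were called, with 2 lower at an unadjusted p under 0.05, beside 223 of 10916 over all genes, and the median was -0.30 against 0.00 over all genes. With ATL1222 1 of 10 was called higher against WT vehicle, beside 0.202% of all genes, and 2 against the knockout, beside 0.879%. Nothing is read from these shares, since the list was chosen with earlier results of these data known. By limma 0 of 10 fell in either comparison, at the adjusted threshold or at an unadjusted p under 0.05. The medians were 0.13 and 0.21 against -0.01 and -0.02 over all genes.

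Id2, an inhibitor of E protein transcription factors, gave 400.0 and 327.1 in KO vehicle, 772.2 and 411.9 in WT vehicle, and 1747 and 1356 in WT ATL1222. The groups did not overlap and stood in the order of Cebpb, from which nothing is read, since its share over all genes was not counted. Id2 rose with ATL1222 against WT vehicle (1.42 ± 0.25, limma adjusted p = 0.0322) and against the knockout (2.04 ± 0.25, limma adjusted p = 6.03e-04), and its knockout difference did not pass (-0.62 ± 0.25, limma adjusted p = 1.00). Without WT vehicle replicate 2 or without either ATL1222 array 0 of the 10 were called against WT vehicle.

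Gadd45b, a stress response gene, gave 579.2 and 510.8 in KO vehicle, 925.7 and 967.3 in WT vehicle, and 958.4 and 928.6 in WT ATL1222. The knockout arrays lay below the other 4, and the wild-type groups overlapped, so its order was unlike that of Cebpb. Its differences were -0.78 ± 0.16 in the knockout (limma adjusted p = 0.547) and 0.00 ± 0.16 with ATL1222 against WT vehicle (limma adjusted p = 0.999). Between ATL1222 and the knockout, which differ in genotype too, the difference was 0.78 ± 0.16 and was called higher (limma adjusted p = 0.0370). Il10, an immunosuppressive cytokine, gave 112.9 and 56.6 in WT vehicle, 22.1 and 76.2 in KO vehicle, and 260.2 and 208.5 in WT ATL1222. With ATL1222 it did not pass against WT vehicle (1.36 ± 0.48, limma adjusted p = 0.719) or against the knockout (2.07 ± 0.48, limma adjusted p = 0.0687). With the replicate block 3 targets were called higher against the knockout, Id2, Gadd45b and Il10 (limma adjusted p = 0.0368 for Il10), beside 1.88% of all genes. Against WT vehicle 1 was called higher in that fit, Id2, beside 0.678% of all genes. Leaving out KO vehicle replicate 1 or either ATL1222 array left 1 target called against the knockout.

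**Figure D4:**
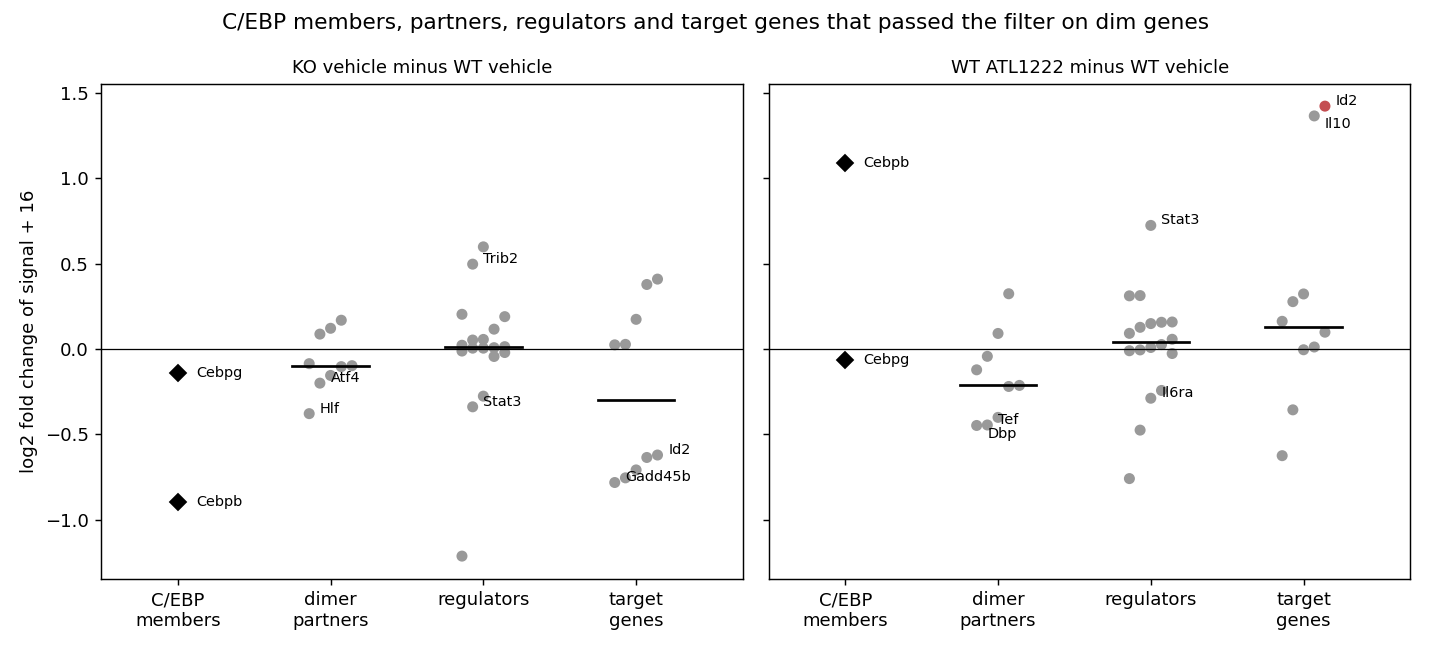
Log2 differences of signal + 16 in the knockout (left) and with ATL1222 (right), both against WT vehicle, for the 2 C/EBP members tested (diamonds) and for the genes of the 3 lists that passed the filter on dim genes (points, with the list median as a line and the 2 genes with the smallest p named). Red points were called, which held for Id2 with ATL1222, and Cebpb lies at -0.90 on the left and 1.09 on the right.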

How the data were processed

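The authors deposited linear array intensities of 45101 probe sets for 6 arrays. Per the labels' protocols, 1 µg of RNA was labelled with biotin. Per the submitters' processing notes GCOS was used, and no version or summary method was found in the sources used here. Each deposited array averaged 250.0 over its probe sets after trimming, and this scaling was kept. Median signals ran from 74.7 to 98.2.

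From these, 64 control probe sets, 932 listed with several genes and 9160 not listed were dropped. Of 34945 probe sets with 1 gene, 34741 matched a mouse gene table through Entrez identifiers, used for names. The brightest probe set stood for each of 18193 genes, as log2(signal + 16), so folds of dim genes are understated. Genes in the lowest 40% by mean were removed, and the remaining 10916 went into limma 3.58.1 (R 4.3.3) with a variance trend. A single model held all 6 arrays, with Benjamini-Hochberg adjustment over all genes. A check of the code on simulated arrays used independent noise without a replicate effect, so nothing is read from it for these arrays. The median SE was 0.231, and the number of arrays limits the precision. Standard errors of the other member probe sets come from a fit of every probe set with no filter.

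Deviations from the group means of same-numbered arrays correlated with r = 0.230, 0.230 and 0.147 over the 3 pairs of groups. For the members and the 3 lists of the C/EBP network, results with the replicate number as a block are therefore given where they change a call. Calls of the cell type markers are given without the block. The pairing rests on this correlation, since the labels do not say what a number shares.

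The members and gene lists were chosen with earlier results of these data known. Named from each list were the called genes, up to 4 by p, or, where fewer than 2 were called, the 2 with the smallest p, and for likeness the 6 (Cebpb) and 2 (Cebpg) genes with the highest r. The gene of the receptor is not reported here. Alternatives covered pseudocount, filter, normalization, variance trend, probe set summary, arrays in the fit, block and leaving out each array.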

Additional observations from a re-analysis of the deposited data

How the results depend on the processing

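Under the 17 alternatives run, the Cebpb difference kept its direction in every comparison: -1.19 to -0.60 in the knockout, 0.80 to 1.38 with ATL1222 and 1.74 to 2.15 with ATL1222 against the knockout. The knockout extremes were -0.60 without WT vehicle replicate 1 and -1.19 without WT vehicle replicate 2. Leaving out 1 array gave 1.82 to 2.15 for the last, and averaging its probe sets 1.74. The knockout difference of Cebpd, which was not tested, ran from -0.15 to 0.98. For Cebpd, ATL1222 against the knockout gave -0.78 with a pseudocount of 1, -0.21 with 64, -0.30 after quantile normalization and 0.44 with probe sets averaged. Averaging also gave 0.55 for Cebpd and 0.11 for Cebpg with ATL1222 against WT vehicle.

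Of 2 tested members, 1 (Cebpb) was called in the knockout with the replicate block and 0 otherwise. With ATL1222 against WT vehicle 0 were called with each probe set tested separately, no filter, no variance trend, probe sets averaged or a pseudocount of 1, and 0 to 1 without single arrays. Against the knockout 0 were called with no variance trend. The cause was not tested.

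Genes called in the knockout were 0 with each probe set tested separately, 0 with no variance trend, 0 with probe sets averaged, 9 with the replicate block, and 3 to 7 without single arrays. With ATL1222 against WT vehicle they were 35 after cyclic loess, 13 with each probe set, 36 with the lowest 60% left out, 14 with no filter, 0 with no trend, 44 with the 4 arrays compared, 3 with averaging, 79 with the block, and 5 to 39 without single arrays. Against the knockout they were 63 with each probe set, 70 with no filter, 5 with no trend, 44 with averaging, 264 with the block, and 42 to 133 without single arrays.

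Target genes called against the knockout were 1 with each probe set, 1 with no filter, 0 with no trend, 1 with averaging and 1 to 3 without single arrays. Against WT vehicle they were 0 with each probe set, no filter, no trend, averaging or quantile normalization, and 0 to 1 without single arrays. Regulators called were 1 against WT vehicle after cyclic loess, after quantile normalization, with the 4 arrays compared or with the block, and 0 against the knockout with no trend or averaging and 0 to 1 without single arrays. For the dimer partners 0 were called under every alternative in any comparison. Signal near background limits what can be said of Cebpa and Cebpd.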
